A study of Mus musculus with 4 samples.

Results

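The miR-99/100 and miR-125 families are 2 groups of short regulatory RNAs whose genes sit beside let-7 genes in 3 genomic clusters. Their 6 hairpin precursors, listed as mmu-mir-99a, mmu-mir-99b, mmu-mir-100, mmu-mir-125a, mmu-mir-125b-1 and mmu-mir-125b-2 and written here without the species prefix, were chosen by name from the 605 miRNA hairpins listed, out of 2150 features in 5 small RNA classes, and all 6 passed the minimum level for testing. Small RNA was sequenced from spermatozoa of adult C57BL/6 mice, taken from the cauda epididymis, where mature sperm are stored. Breeding differed between the groups, named original cross and extra cross to wildtype. Each group had 2 mice, each mouse gave 1 library, and no treatment is given in the labels. The study's title concerns sperm in which a LoxP site, a short target of Cre recombinase, is or is not prone to being silenced. The labels name neither the transgene carried nor which cross was susceptible. Sperm was washed but no step to remove other cells is described. In such bulk samples fewer cells of a type and less RNA per cell cannot be told apart.

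MicroRNAs are cut from hairpin precursors and guide Argonaute proteins to messenger RNAs that pair with the seed, bases 2 to 8 of the mature strand. The miR-99/100 family is an ancient one that in mammals is known to repress mTOR, the growth-control kinase. The miR-125 family is the vertebrate counterpart of lin-4, which together with let-7 was found as a developmental timing microRNA in worms, and miR-125b is broadly expressed in connective tissue, muscle and brain.

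The mature strands show which of these hairpins differ in sequence and which make the same strand. Sequences are from RefSeq (GRCm38.p6), 5′ to 3′, with the seed in capitals.
miR-99a-5p: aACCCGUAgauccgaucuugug
miR-100-5p: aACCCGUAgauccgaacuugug
miR-99b-5p: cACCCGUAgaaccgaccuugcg
miR-125b-5p: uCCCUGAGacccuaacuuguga
miR-125a-5p: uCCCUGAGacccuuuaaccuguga
miR-10a-5p: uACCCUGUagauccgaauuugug
The 3 members of the miR-99/100 family share the seed ACCCGUA. Counting positions from the 5′ end, miR-99a-5p and miR-100-5p differ at 1 position (U16A), and miR-99a-5p and miR-99b-5p at 4 (A1C, U11A, U16C and U21C). Both miR-125 forms have the seed CCCUGAG and share their first 13 bases. The strand miR-10a-5p, of the most abundant family in these libraries, is shown because it resembles miR-99a-5p, with which it shares a run of 10 bases, but its seed is ACCCUGU.

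The copies mir-125b-1 and mir-125b-2 make the same 5p strand, so a read of miR-125b-5p cannot be assigned to 1 of them. Their 3p strands differ and are shown because only those can tell the copies apart.
miR-125b-1-3p: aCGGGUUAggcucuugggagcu
miR-125b-2-3p: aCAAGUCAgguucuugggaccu

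On GRCm38 all 9 hairpins of the 3 clusters lie on the plus strand. The chromosome 16 cluster holds mir-99a (chr16:77598936-77599000), let-7c-1 (chr16:77599657-77599750) and mir-125b-2 (chr16:77646273-77646343). It spans 47408 bases within introns of the long noncoding gene Mir99ahg in the GENCODE M21 annotation. There mir-125b-2 also overlaps an exon of the unclassified transcript C130023A14Rik. The chromosome 9 cluster holds mir-100 (chr9:41531425-41531504), let-7a-2 (chr9:41536716-41536811) and mir-125b-1 (chr9:41581926-41582002) over 50578 bases inside 3110039I08Rik, which RefSeq calls Mir100hg. The mir-100 hairpin also overlaps an exon of the minus-strand noncoding gene Gm48742, and mir-125b-1 an exon of Gm28119. The chromosome 17 cluster is compact, with mir-99b (chr17:17830188-17830257), let-7e (chr17:17830352-17830444) and mir-125a (chr17:17830812-17830879) within 692 bases of Spaca6, a gene of the sperm acrosome. There mir-99b and let-7e are intronic and mir-125a overlaps an exon of a Spaca6 transcript.

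Levels are given in RPM, reads per library scaled by the authors to a common total. In the miRNA class 1 read was worth 1.58 and 0.561 RPM in original-cross replicates 1 and 2, and 0.642 and 0.238 RPM in extra-cross replicates 1 and 2, so the scale rests on 632859, 1782499, 1557778 and 4205745 reads. In these units 20 of the 24 member values were whole reads (within 0.05 read), and the other 4, both mir-125b copies in both extra-cross libraries, ended in a fraction of 0.5 read. The values of the miR-99/100 hairpins and mir-125a thus showed no fraction of a read. Original-cross replicates 1 and 2 held 275809 and 117322 RPM of miRNA and extra-cross replicates 1 and 2 held 441544 and 140437 RPM, so both replicate 1 libraries were richer in miRNA than both replicate 2 libraries. In what follows, a pair of values for a cross is in the order of replicates 1 and 2.

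No member differed between the crosses beyond the spread within the groups, which includes the difference between replicate numbers. The limma test over 760 small RNA features, with cross type as its only term, called 0 of the 6 members and 0.0% of all features when p was adjusted by Benjamini-Hochberg with a threshold of 0.05. An unadjusted p below 0.05 was found for 112 features but for no member. Each member had a limma adjusted p of 0.995. With the replicate number added to the test as a block, 171 of the 760 features passed and again 0 members. The numbers are not known to mark pairs. In RPM the groups overlapped for all 6 members. Of all 760 features, 206 of them hairpins, 4.47% were higher and 26.8% lower in the extra cross without overlap. That share was not taken for the hairpins alone.

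In the miR-99/100 family, mir-99b was the most abundant hairpin. It had 1180.4 and 397.8 RPM (original cross) against 1460.4 and 370.9 RPM (extra cross), on 709 to 2275 reads. Both replicate 1 libraries were high and both replicate 2 libraries low, whatever the cross. The log2 fold change, extra over original cross, on the log2(RPM + 1) scale was 0.10 (95% interval -2.29 to 2.50), with 0.31 within the replicate 1 table and -0.10 within the replicate 2 table.

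Hairpin mir-99a had 487 and 131 RPM (original cross) against 463 and 157 RPM (extra cross), on 234 to 722 reads. Within a replicate number the 2 crosses lay close together, and the log2 fold change was 0.09 (-2.21 to 2.40). Hairpin mir-100 had 409 and 107 RPM (original cross) against 512 and 117 RPM (extra cross), on 191 to 797 reads. It was the only member for which both tables had the higher value in the extra cross, a pattern seen in 42.7% of the 206 tested hairpins, with a log2 fold change of 0.22 (-2.36 to 2.81). Scaled to the miRNA class its log2 fold change was -0.242, and its share of the class was lower in the extra cross of each table (0.148% to 0.116% and 0.0913% to 0.0835%). Summed, the family had 2076 and 636 RPM (original cross) against 2436 and 645 RPM (extra cross). The log2 difference of the sums, extra minus original, was 0.12, and -0.34 with the miRNA class as the total (two-sided exact permutation p = 0.667 for both, where 2 against 2 mice cannot go below 0.333).

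In the miR-125 family, mir-125a carried most of the reads. It had 3367 and 1231 RPM (original cross) against 3866 and 1006 RPM (extra cross), on 2131 to 6023 reads, and ranked between the 12th and the 22nd most abundant hairpin. Its log2 fold change was -0.05 (-2.38 to 2.29), or 0.28 under median-ratio scaling, and its direction differed between the tables (0.20 and -0.29).

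The mir-125b copies stood below their original-cross level in both tables. Hairpin mir-125b-1 had 738 and 559 RPM (original cross) against 591 and 274 RPM (extra cross). Its 2 lower values were extra-cross replicate 2 and original-cross replicate 2, so the groups overlapped. The log2 fold change was -0.67 ± 0.61 (SE, 2 mice per cross; 95% interval -2.25 to 0.90), with -0.32 and -1.03 within the replicate 1 and 2 tables. Hairpin mir-125b-2 had 774 and 569 RPM against 597 and 304 RPM, with a log2 fold change of -0.64 ± 0.60 (-2.16 to 0.89). Without extra-cross replicate 2 the log2 fold changes of mir-125b-1 and mir-125b-2 were -0.12 and -0.152, and without extra-cross replicate 1 they were -1.23 and -1.13. These copies share most reads and count as 1 observation. Of the 206 tested hairpins 23.3% were lower in both tables. The family sum was 4879 and 2359.6 RPM (original cross) against 5055 and 1583 RPM (extra cross), a log2 difference of -0.26 that became 0.060 under median-ratio scaling (exact permutation p = 1 for both).

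**Figure D1:**
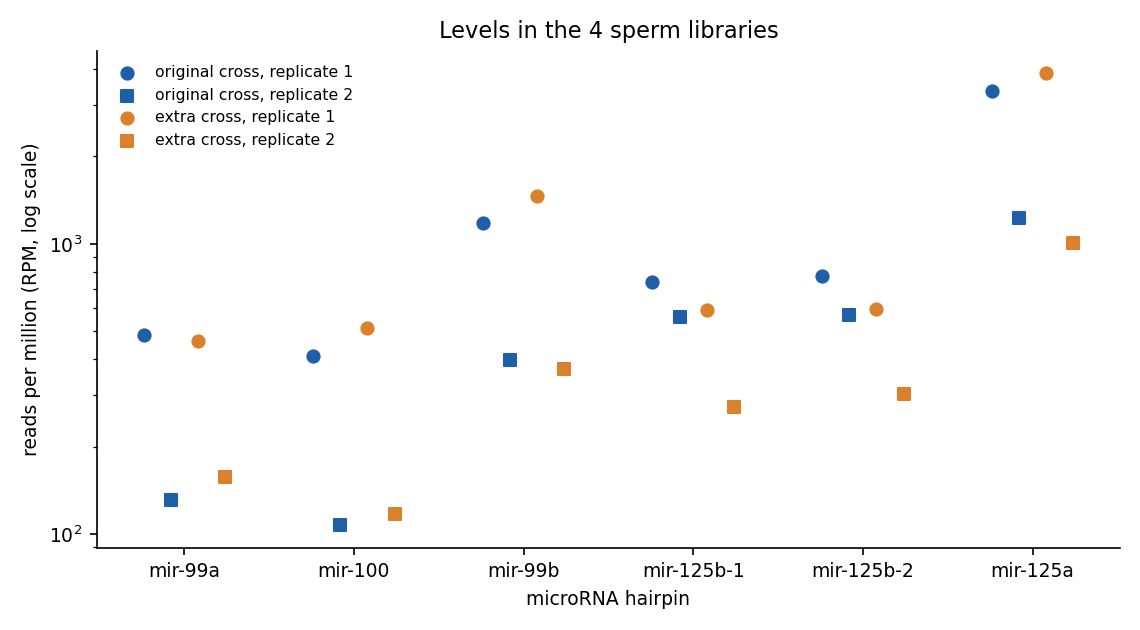
RPM (log scale) of each hairpin in each of the 4 libraries, with 1 point per mouse, blue for the original cross, orange for the extra cross, circles for replicate 1 and squares for replicate 2. Circles lie above squares of the same colour for every hairpin, and the crosses overlap for every hairpin, with mir-125b-1 at 738 and 559 RPM (original cross) against 591 and 274 RPM (extra cross).

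For mir-99a, mir-100, mir-99b and mir-125a the replicate number separated the libraries more than the cross did. In the original cross the replicate 1 library had 3.71 times the replicate 2 level of mir-99a, 3.82 times that of mir-100, 2.97 times that of mir-99b and 2.73 times that of mir-125a. The same ratios in the extra cross were 2.96, 4.36, 3.94 and 3.85. For mir-125b-1 they were smaller, at 1.32 and 2.16, while its ratios of extra to original cross were 0.80 (replicate 1) and 0.49 (replicate 2). For this hairpin the cross difference within replicate 2 was thus larger than the replicate difference within the original cross. The whole miRNA class had ratios of 2.35 and 3.14, so these 4 hairpins stood above the class in the original cross and mir-125b-1 below it in both crosses.

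The median log2 fold change of the 6 members was 0.02, against 0.20 for the 206 tested hairpins and -0.12 for all 760 features. Of the 6, 1 was higher in both tables, 2 (the mir-125b copies, which are 1 observation) were lower in both and 3 differed in direction. Among all 760 features 19.9% were higher and 46.3% lower in both tables.

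**Figure D2:**
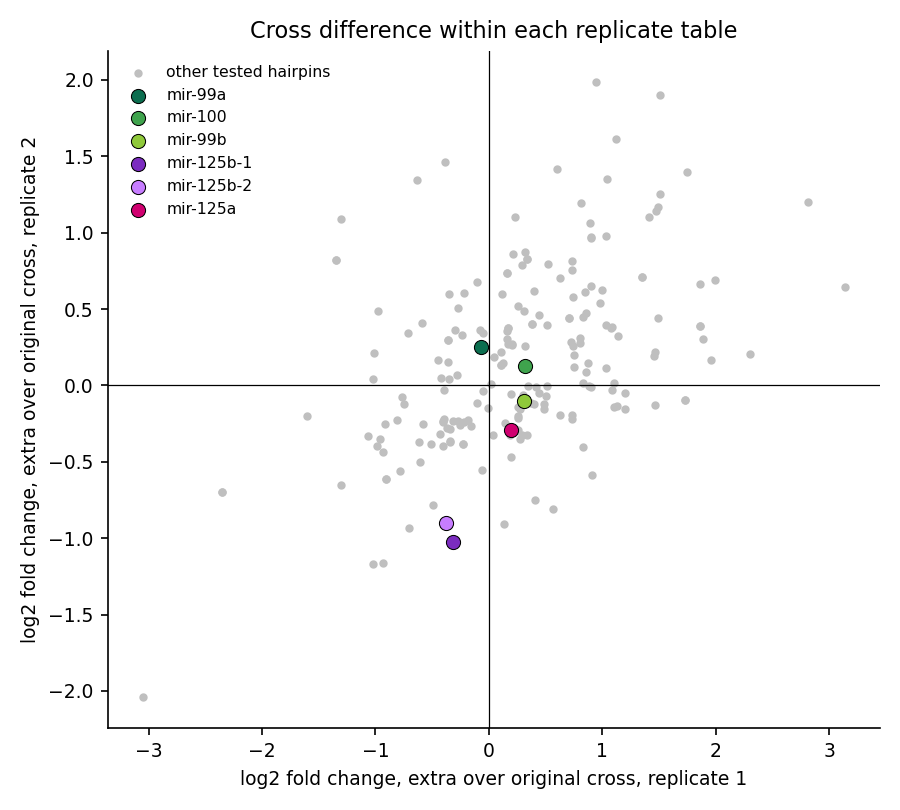
Log2 fold change of the extra over the original cross within the replicate 1 table (x axis) and the replicate 2 table (y axis) for the 206 tested hairpins in grey, with the 6 members coloured. The mir-125b copies lie together in the lower left at -0.32 and -1.03 (mir-125b-1), while the other 4 members lie near the centre.

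Set against the other microRNAs of the same library, the members were a smaller part of the class in the extra cross. Scaled to the miRNA class, the 206 tested hairpins also had a negative median log2 fold change, -0.27. Together the 6 members made up 2.52% and 2.55% of the miRNA class in the original cross and 1.70% and 1.59% in the extra cross. The exact 95% binomial intervals, which cover counting error only, ran from 2.45% to 2.62% in the original-cross libraries and from 1.55% to 1.73% in the extra-cross libraries. The log2 difference of the shares was -0.63 (exact permutation p = 0.333, the smallest possible), and this way of scaling was looked at closely after the values were seen.

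The miR-125 family accounted for most of it, at 1.77% and 2.01% in the original cross and 1.14% and 1.13% in the extra cross, a log2 difference of -0.73 (exact permutation p = 0.333). The miR-99/100 family made up 0.753% and 0.542% in the original cross and 0.552% and 0.459% in the extra cross, and these groups overlapped, with a log2 difference of -0.34 (exact permutation p = 0.667).

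By share of the class 5 of the 6 members, all but mir-100, were lower in both extra-cross libraries than in both original-cross libraries. Among these 5 the mir-125b copies are listed separately although they are 1 observation. Of the 206 tested hairpins 29.1% were lower in this way, while 10.7% were higher. For mir-125a the shares were 1.22% and 1.05% against 0.876% and 0.716%, and the counting intervals did not meet. For mir-125b-2 they were 0.281% and 0.485% against 0.135% and 0.216%, with no meeting of the intervals either. For mir-99a the lowest original-cross share, 0.112%, and the highest extra-cross share, also 0.112%, could not be told apart at this depth, and for mir-99b the nearest shares were 0.339% and 0.331%, with overlapping intervals.

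The denominator of these shares is dominated by mir-10a and mir-10b, which held 49.2% and 46.5% of the class in the original cross and 59.4% and 51.2% in the extra cross. With both left out of the total, the 6 members made up 4.96% and 4.78% in the original cross and 4.18% and 3.25% in the extra cross, and the miR-125 family 3.48% and 3.76% against 2.82% and 2.31%. For these 2 sums the groups still did not overlap, but the log2 differences were smaller: -0.40 instead of -0.63 for the 6 members, -0.50 instead of -0.73 for the miR-125 family and -0.12 instead of -0.34 for the miR-99/100 family. On this scale, chosen after seeing the data, the 206 tested hairpins had a median log2 fold change of -0.041. The share of hairpins without overlap was not counted on it, so the non-overlap of the sums has no background beside it.

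**Figure D3:**
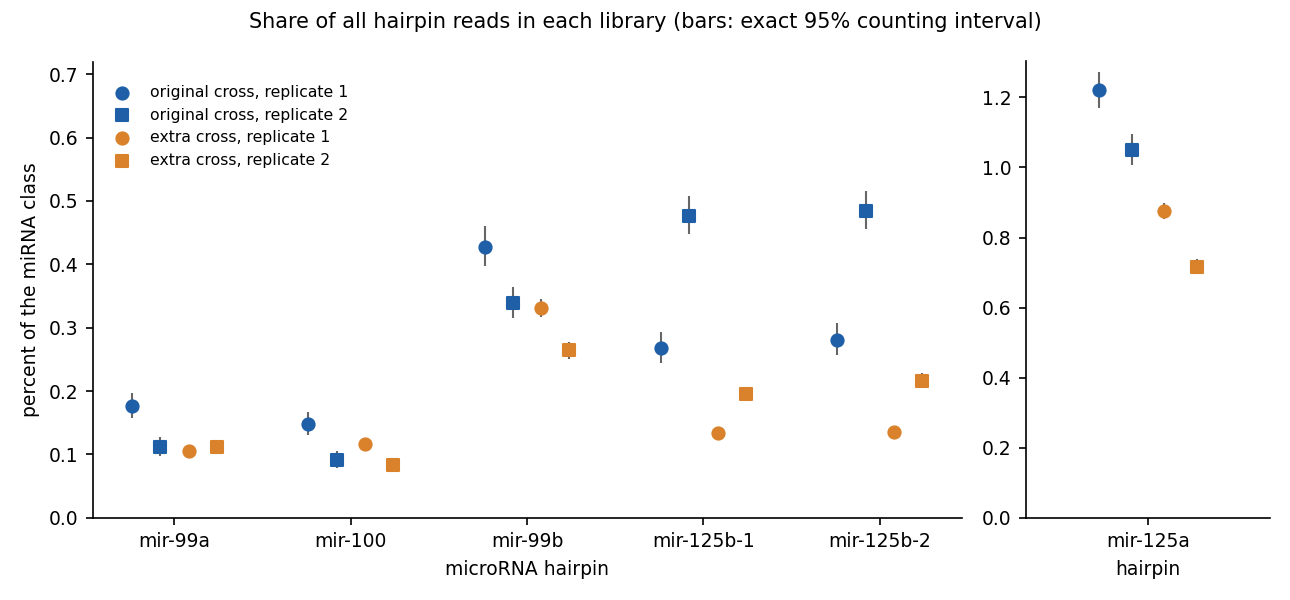
Share of the miRNA class in percent for each hairpin and library, with exact 95% counting intervals as bars, colours and symbols by cross and replicate, and a separate axis for mir-125a. The mir-125b copies and mir-125a lie lower in both orange libraries, with mir-125a at 0.876% and 0.716% against 1.22% and 1.05%.

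Because a ratio of 2 hairpins inside 1 library does not depend on how libraries are scaled, 13 such ratios were compared between the crosses. None passed, with adjusted p = 1 for each (exact permutation test, Benjamini-Hochberg over the 13), since 2 against 2 mice cannot pass. The ratio of mir-99b to mir-125a, neighbours in the compact chromosome 17 cluster, was 0.350 and 0.323 in the original cross and 0.378 and 0.369 in the extra cross. It was the steadiest of the ratios other than that between the mir-125b copies, with the highest value 1.17 times the lowest. The crosses did not overlap, although the counting intervals did (0.322 to 0.381 in original-cross replicate 1 and 0.348 to 0.391 in extra-cross replicate 2). For let-7c-1 to mir-125b-2 the crosses did not overlap either, at 0.829 and 2.003 (original cross) against 2.304 and 3.395 (extra cross). The log2 difference, extra minus original, was 1.12 for that ratio and 0.15 for mir-99b to mir-125a (exact permutation p = 0.333 for both).

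The corresponding ratios in the 2 wide clusters varied far more. On chromosome 16 the ratio of mir-99a to mir-125b-2 was 0.629 and 0.231 in the original cross and 0.776 and 0.516 in the extra cross. On chromosome 9 the ratio of mir-100 to mir-125b-1 was 0.555 and 0.192 in the original cross and 0.866 and 0.428 in the extra cross. The highest values were 3.36 and 4.52 times the lowest. In both clusters original-cross replicate 2 had the lowest ratio and extra-cross replicate 1 the highest, and the crosses overlapped. Because the mir-125b copies share most reads, these 2 ratios are not independent and neither belongs to its cluster alone.

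**Figure D4:**
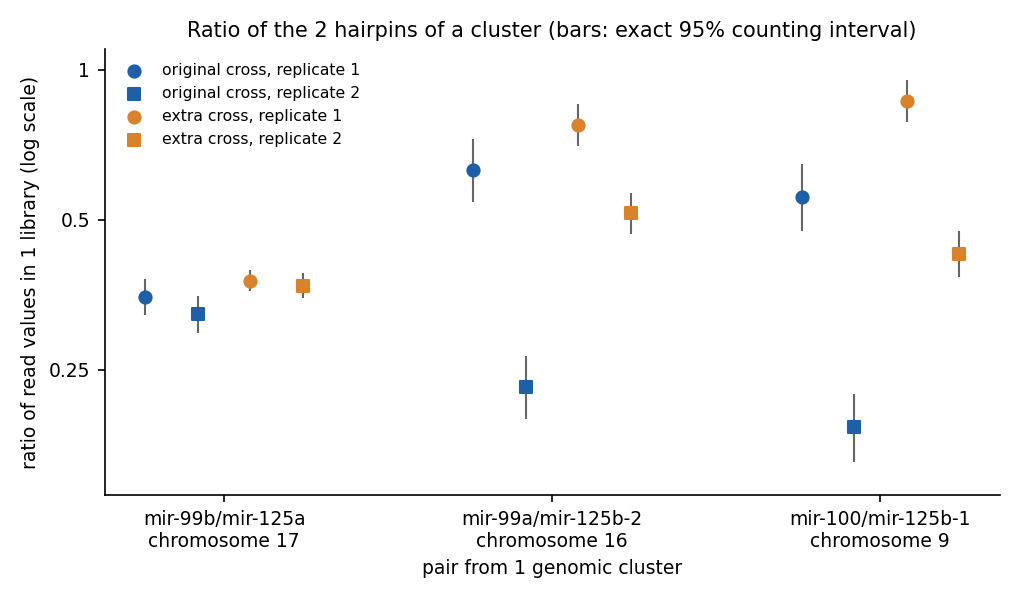
Ratio of the miR-99/100 hairpin to the miR-125 hairpin of each genomic cluster in each library (log scale), with exact 95% counting intervals as bars. The 4 libraries lie between 0.323 and 0.378 for the chromosome 17 pair, between 0.231 and 0.776 for the chromosome 16 pair and between 0.192 and 0.866 for the chromosome 9 pair. The chromosome 16 and chromosome 9 ratios share most of their mir-125b reads.

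Over all 15 pairs of members, a description made after the values were seen, the hairpins fell into those that kept their proportions and those that did not. The SD of the log2 ratio over the 4 libraries was 0.10 to 0.26 for the 6 pairs among mir-99a, mir-99b, mir-100 and mir-125a, which come from all 3 clusters. It was 0.66 to 0.91 for the 8 pairs of any of these with a mir-125b copy. Sharing a seed did not order the pairs, since mir-125a to mir-125b-1 (0.66) varied more than mir-125a to mir-99b (0.10). The pair of mir-125b copies had an SD of 0.06, which their shared reads fix in large part.

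**Figure D5:**
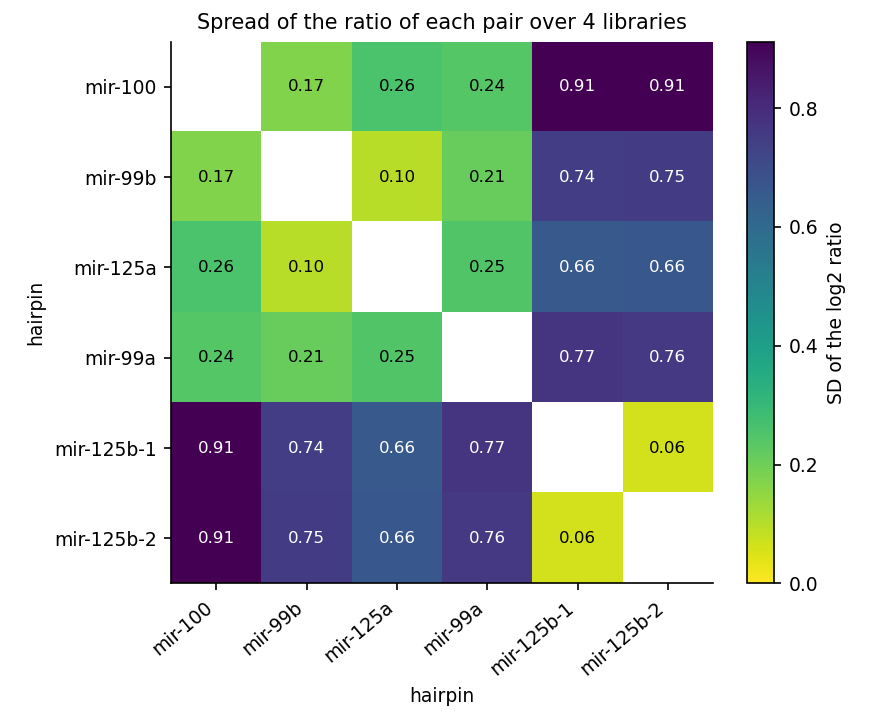
SD over the 4 libraries of the log2 ratio of each pair of hairpins, with pale cells for pairs that keep their proportions. The 6 pairs among mir-100, mir-99b, mir-125a and mir-99a have values from 0.10 to 0.26, and their pairs with mir-125b-1 or mir-125b-2 from 0.66 to 0.91.

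The values of the let-7 hairpins of the same clusters did not keep pace with those of their neighbours. For let-7c-1 and let-7a-2 these values may include reads from copies elsewhere. On chromosome 16 let-7c-1, which shares its 5p strand with a copy elsewhere, had 642 and 1139 RPM (original cross) against 1376 and 1031 RPM (extra cross). Its ratio to mir-99a, which lies 656 bases away, was 1.32 and 8.68 in the original cross and 2.97 and 6.58 in the extra cross. Here the replicate 2 libraries had the higher ratios in both crosses.

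On chromosome 9 let-7a-2 had 116 and 193 RPM (original cross) against 194 and 166 RPM (extra cross), and a copy elsewhere had close values. The ratio of let-7a-2 to mir-100 ran from 0.284 to 1.801. On chromosome 17 let-7e had 104 and 78.0 RPM (original cross) against 82.2 and 63.7 RPM (extra cross), on 66 to 268 reads, and its ratio to mir-99b ran from 0.0563 to 0.196. None of the 3 passed limma (adjusted p = 0.995 each). Of the 12 hairpins of the whole let-7 family, 0 passed in either direction, 3 were higher and 1 lower in both tables, and the median log2 fold change was 0.26. Of the miR-10 family, whose strands resemble those of miR-99/100, 0 of 2 passed in either direction, and mir-10a and mir-10b had log2 fold changes of 0.73 and 0.64.

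By the centred log2 profile over the 4 libraries, the hairpins nearest to the miR-99/100 family sum among 200 others were mir-22, mir-151 and mir-92a-2, with root mean square differences of 0.044, 0.066 and 0.10. For the miR-125 family sum they were mir-28a, mir-342 and mir-470, at 0.11, 0.12 and 0.12. These profiles rest on 4 libraries, and both replicate 1 libraries were richer in miRNA than both replicate 2 libraries. How many hairpins have such a profile was not counted.

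Reads on the host transcripts were few. In original-cross replicate 2 and extra-cross replicates 1 and 2, the RefSeq transcript of Mir99ahg, which ends upstream of mir-99a and does not span the cluster, had 1.12, 0 and 0.713 RPM, the 3 listed Mir100hg transcripts summed to 0.561, 0.642 and 2.14 RPM, and the 15 listed Spaca6 transcripts to 5.52, 10.1 and 4.64 RPM. Original-cross replicate 1 is not set beside them, because its RefSeq rows sum to 7926 RPM against 131739 to 155300 RPM in the others. How reads that match several transcripts of a gene were assigned is not given.

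MicroRNAs of somatic cells that may be carried along with sperm were present in every library, with all 6 smooth muscle and stroma hairpins, all 5 of epididymal epithelium and all 8 of blood above 0. The stroma list, in which mir-143 and mir-199a are defining members, summed to 8547 and 6264 RPM (original cross) against 3382 and 5078 RPM (extra cross), so that the sum was higher in both original-cross libraries. By hairpin 5 of 6 were lower in both tables, against 23.3% of the 206 tested hairpins. The mir-199a copies among the 5 had nearly the same values and count as 1 observation. The exception was mir-143, with 1726 and 1867 RPM (original cross) against 856 and 2162 RPM (extra cross). In RPM the lowest library was extra-cross replicate 1 for the stroma list and extra-cross replicate 2 for mir-125b. By share of the miRNA class extra-cross replicate 1 was the lowest for the list (0.766%), mir-125b-1 (0.134%) and mir-125b-2 (0.135%). The epithelial list summed to 4394 and 2055 RPM (original cross) against 10408 and 5315 RPM (extra cross), so that the sum was higher in both extra-cross libraries. By hairpin 4 of 5 were higher in both tables, against 42.7% of the 206 tested hairpins. The median log2 fold change was 1.00 for the epithelial list and -0.61 for the stroma list. The blood list had 6520 and 11186 RPM in the replicate 1 libraries and 1229 and 1136 RPM in the replicate 2 libraries. Replicate 1 was likewise the higher within each cross for every member, the epithelial and germ cell lists and the whole miRNA class. Germ cell microRNAs summed to 2098 and 824 RPM (original cross) against 2084 and 1298 RPM (extra cross), with mir-449b not listed in either table and mir-449c at 0 in extra-cross replicate 1. The part of these cell types in the levels of the members was not tested.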

How the data were processed

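Small RNA libraries from cauda sperm of 4 mice, 2 per cross, were analysed. Per the labels' protocols, Trizol extracts of single mice were cut to small sizes on a gel, prepared with Illumina's TruSeq kit for small RNA and sequenced together in a single lane. Bowtie 1.1.2, CASAVA 1.8.2 and the build mm10 are listed in the submitters' processing notes, without their roles. How reads were trimmed, annotated and, where they match several places, assigned is not given in the sources used here. All deposited values are RPM, per the file headers, in 2 tables, and the column header with the table's replicate number gave each library. Features absent from a table were set to 0 there. The RPM scale was set by the authors per library, and levels are compared across the 2 tables on that basis. Hairpin values do not separate the 5p and 3p strands.

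The commonest RPM value of the miRNA class was taken as 1 read. Over all small RNA values up to 20 reads only 28.6% to 36.6% were whole within 0.02 reads, so no count model was run. Features of the tRNA, miRNA, piRNA, rRNA and repeat classes averaging at least 10 RPM over the libraries (760) were tested on log2(RPM + 1) with limma 3.58.1 in R 4.3.3, with a variance trend and Benjamini-Hochberg adjustment, after a check on simulated data. Family sums and ratios were compared by exact permutation tests in Python 3.11.15. Alternatives covered pseudocounts, the filter, library scaling, the variance trend, the replicate block and each library left out. The text names the 6 members, the 3 let-7 neighbours, mir-10a and mir-10b, and the 3 hairpins nearest to each family sum, and beside this rule some hairpins of the cell type lists (mir-143, mir-199a, mir-449b and mir-449c). The members and lists were chosen with earlier results of these data known.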

Additional observations from a re-analysis of the deposited data

How the results depend on the processing

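All alternatives gave 0 members past the threshold (limma adjusted p). Features past it numbered 0 of 760 except with a replicate block, where 171 passed. With the replicate block mir-125b-1 and mir-125b-2 had adjusted p of 0.0655 and 0.0844. The numbers are not known to mark pairs, although replicate 1 minus replicate 2 differences correlated between the crosses across 760 features (r = 0.87, not independent points). Both mir-125b copies had negative log2 fold changes under every alternative run, but their size rested on single libraries: mir-125b-1 ran from -1.23 (without extra-cross replicate 1) to -0.12 (without extra-cross replicate 2) and mir-125b-2 from -1.13 to -0.152. Directions turned with scaling, which moved the hairpin median from 0.20 to 0.51 (median ratios), 0.063 (5 classes), -0.27 (miRNA class) and -0.041 (miRNA class without mir-10a and mir-10b, an alternative chosen after seeing the data). Median ratios turned mir-125a to 0.276 and the miR-125 sum to 0.060. The 5-class sum turned mir-99a to -0.044, mir-99b to -0.033, the miR-99/100 sum to -0.011 and the median of the 6 members to -0.11. The miRNA class turned mir-99a to -0.375, mir-100 to -0.242, mir-99b to -0.365, the miR-99/100 sum to -0.344, the member median to -0.445 and the let-7 neighbours' median to -0.207. Without mir-10a and mir-10b these were -0.149, -0.0155, -0.138, -0.116 and -0.218, with the let-7 median not turned. Leaving out 1 library lets the replicate difference in: the sums ran from -0.833 to 1.08 (miR-99/100) and -1.1 to 0.575 (miR-125), the member median from -0.951 to 0.898 and the let-7 neighbours' median from -0.104 to 0.623. So did mir-99a (-0.85 to 1.03), mir-100 (-0.833 to 1.28), mir-99b (-0.884 to 1.09) and mir-125a (-1.02 to 0.925). Log2 ratios that turned ran from -1.29 to 1.36 (let-7a-2/mir-100), -0.969 to 1.74 (let-7c-1/mir-99a), -1.06 to 0.523 (let-7e/mir-125a), -1.22 to 0.389 (let-7e/mir-99b), -0.146 to 0.412 (mir-100/mir-99a), -0.101 to 0.0312 (mir-125b-1/mir-125b-2) and -0.196 to 0.219 (mir-99b/mir-99a). Depth is low for some values, such as the 66 reads of let-7e in original-cross replicate 1.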

Other observations

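The mir-125b copies differed by a whole number of reads in every library, with mir-125b-2 always the higher. The difference was 23 of 957 reads in original-cross replicate 1 (2.40%) and 17 of 2011 in original-cross replicate 2 (0.845%). The extra-cross libraries had 10 of 1851 reads (0.540%, replicate 1) and 125 of 2430 (5.14%, replicate 2). The share was highest in extra-cross replicate 2, and no error is given, because reads unique to each copy cancel in a net difference. The 2 copies share miR-125b-5p, so the difference is a net number of reads given to mir-125b-2 and not to mir-125b-1, and hairpin values do not say from which strand they came. The cause of the higher share in 1 mouse was not tested.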
